A study of Mus musculus with 10 samples.

Results

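Hif1a, Egln1, Egln3, Bnip3, Bnip3l, Slc2a1, Pdk1, P4ha1, Ddit4 and Ankrd37 are 10 genes of the hypoxia response and of mitophagy, the removal of mitochondria by autophagy. They were picked by symbol from the 48709 genes counted in every library, and all 10 passed the filter on low counts, which kept 16884 genes for testing. The genes were chosen by their symbols with fold changes of these same libraries already known, among them the rise of Bnip3l against control, and with the difference between the inhibitors named as the comparison of interest. The values below therefore describe these genes, and the p-values, which come from fits over all 16884 genes, give no independent support to the choice.

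The libraries hold polyadenylated RNA of mouse hippocampal neurons kept in primary culture. On day 10 in vitro the cultures were given lipid nanoparticles, and RNA was taken 48 h later, on day 12. The nanoparticles carried scramble RNA in the control group (2 libraries), an inhibitor of microRNA-409-5p in the anti-miR-409-5p group (4 libraries) and an inhibitor of microRNA-501-3p in the anti-miR-501-3p group (4 libraries). All groups, control included, were exposed to nanoparticles, and no untreated culture and no culture at low oxygen was analysed here. The labels give neither the mouse strain nor the age of the donors, and whether replicate libraries stem from separate cultures is not said, so p-values here reflect spread among the libraries at hand, which may be technical. An anti-miR is a short antisense oligonucleotide that binds a mature microRNA and blocks it, and the levels of both microRNAs were not analysed here.

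In the hypoxia response, prolyl hydroxylases use oxygen to mark the transcription factor subunit HIF-1alpha for destruction, so that the factor accumulates and switches on its target genes when oxygen is short. The targets raise glucose uptake and glycolysis, hold pyruvate back from mitochondria, and include mitochondrial outer membrane receptors that recruit the autophagy machinery and thereby lower the number of mitochondria. Neurons depend on mitochondria for most of their energy, and the hypoxia response shifts part of that supply to glycolysis. HIF-1alpha is controlled mainly at the level of the protein, which these data do not measure.

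The inhibited microRNAs have different seeds, the bases 2 to 8 from the 5′ end that pair with target messages. Their mature sequences (RefSeq, GRCm38.p6) are shown with the seed in capitals, because pairing with the seed is the main way by which a microRNA finds its messages.
miR-409-5p: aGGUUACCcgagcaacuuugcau
miR-501-3p: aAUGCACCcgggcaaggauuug

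Matches to these seeds were searched in the annotated 3′ UTR, taking the longest per gene, as GGTAACC or GTAACCA for miR-409-5p and GGTGCAT or GTGCATA for miR-501-3p, on the strand of the message. Each microRNA had a match in 1 of the 10 genes, against 9.85% and 13% of the 14212 tested genes with such a UTR. P4ha1 holds GTAACCA for miR-409-5p, with its first base at position 1318 of a UTR of 2230 bases, and Pdk1 holds GGTGCAT for miR-501-3p at position 2508 of 3734. Each site is shown at the end of a stretch of 30 bases, with the match in capitals.
P4ha1, miR-409-5p: ggtcagcaatttaagctgattgtGTAACCA
Pdk1, miR-501-3p: gaagcagaattctaccgcagcgtGGTGCAT

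P4ha1, with the miR-409-5p site, differed from control under anti-miR-409-5p by a log2 fold change of 0.0046 (SE 0.048). Pdk1, with the miR-501-3p site, was higher than control under anti-miR-501-3p by 0.15 (SE 0.049). After the correction for GC content and length described below, that of Pdk1 was 0.041 (edgeR adjusted p = 0.703). Bnip3, Bnip3l, Hif1a and the other 5 genes held no match to either seed in this window.

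Per kilobase of annotated exon, the mean level over all 10 libraries was 115 CPM per kilobase for Ddit4, followed by P4ha1 (33.7), Egln1 (27.8), Bnip3l (24.8), Bnip3 (23.6), Pdk1 (20.4), Hif1a (16.8), Slc2a1 (14.4), Egln3 (8.68) and Ankrd37 (3.39), where CPM is the count of a gene as a share of its library's total, scaled by TMM to the usual total of CPM. Ddit4 stood at the 98.6th percentile of tested genes and Ankrd37 at the 47.8th. The ranges over libraries overlapped between neighbours in this order from P4ha1 down to Pdk1 and between Hif1a and Slc2a1, while Ddit4, Egln3 and Ankrd37 overlapped with none of their neighbours and Pdk1 did not overlap with Hif1a. Within a gene the highest library exceeded the lowest by 1.20 times for Egln1 to 1.57 times for Egln3. Deposited counts per library ran from 2050 to 6476 for Egln1, Hif1a, Bnip3l, Pdk1, P4ha1 and Ddit4, from 414 to 1940 for Egln3, Bnip3 and Slc2a1, and from 100 to 187 for Ankrd37, the gene with the least precise values.

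Library totals were 22254788 to 32096808 counts, and no pair of libraries of a group agreed within sampling noise. The neuron markers Map2 (1980 to 2506 CPM) and Snap25 (779 to 1065) were abundant in every library. So were astrocyte markers such as Slc1a2 (1877 to 2513) and Gfap (424 to 534). Cx3cr1 of microglia (0 to 0.134 CPM) and Cldn5 of endothelium (0 to 0.0712) were at or near 0, but other markers of their lists were not. Aif1 of the microglia list stood at 6.88 to 10.2 CPM. In the list of endothelial, mural and fibroblast cells Kdr stood at 12.0 to 18.5 and Col1a2 at 80.1 to 141. Olig1 of the oligodendrocyte lineage stood at 245 to 405 CPM. Summed over 7 astrocyte markers, the level was 3615 to 3772 CPM in control, 4111 to 4346 under anti-miR-409-5p and 3989 to 4171 under anti-miR-501-3p, so that both control libraries lay below all 8 anti-miR libraries. Summed over 9 neuron markers it was 6061 to 6108, 6242 to 6471 and 6123 to 6427 CPM, and the controls were again lowest. Neither sum was a uniform shift of its markers. Of the neuron markers 4 rose and 4 fell against control with each inhibitor. Of the astrocyte markers 4 rose and 1 fell under anti-miR-409-5p, while 3 rose and 2 fell with the other inhibitor. In such a mixture fewer cells of a type and less RNA per cell cannot be told apart, and the part of these marker levels in the results below was not tested.

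Both control libraries also differed from the 8 anti-miR libraries in how counts depended on base composition. The slope of the log2 level on transcript GC content, relative to each gene's mean over libraries, was 0.272 and 0.203 per 10 points of GC in control and between -0.131 and 0.0384 in the anti-miR libraries. Genes under 45% GC had a median log2 fold change of 0.26 under anti-miR-409-5p and 0.28 under anti-miR-501-3p, and genes over 55% GC had -0.17 and -0.19, over 3077 and 3122 genes. Between the anti-miRs the same medians were -0.032 and 0.019. Each of the 10 genes is therefore compared with control below also after a correction that removes the trend on GC content and length within each library, and whether the trend belongs to the cells or to the library preparation was not tested. The markers called under anti-miR-409-5p split by GC content in the same direction. Lower were Rbfox3, Tubb3, Syn1 and Slc17a7 (57.87% to 58.57%) and Aldh1l1 (54.42%). Higher were Map2, Snap25, Gad1 and Gad2 (43.43% to 48.41%) and Slc1a2, Slc1a3, Aqp4 and Gja1 (41.37% to 46.72%). The part of the trend in the marker levels was not tested.

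**Figure D1:**
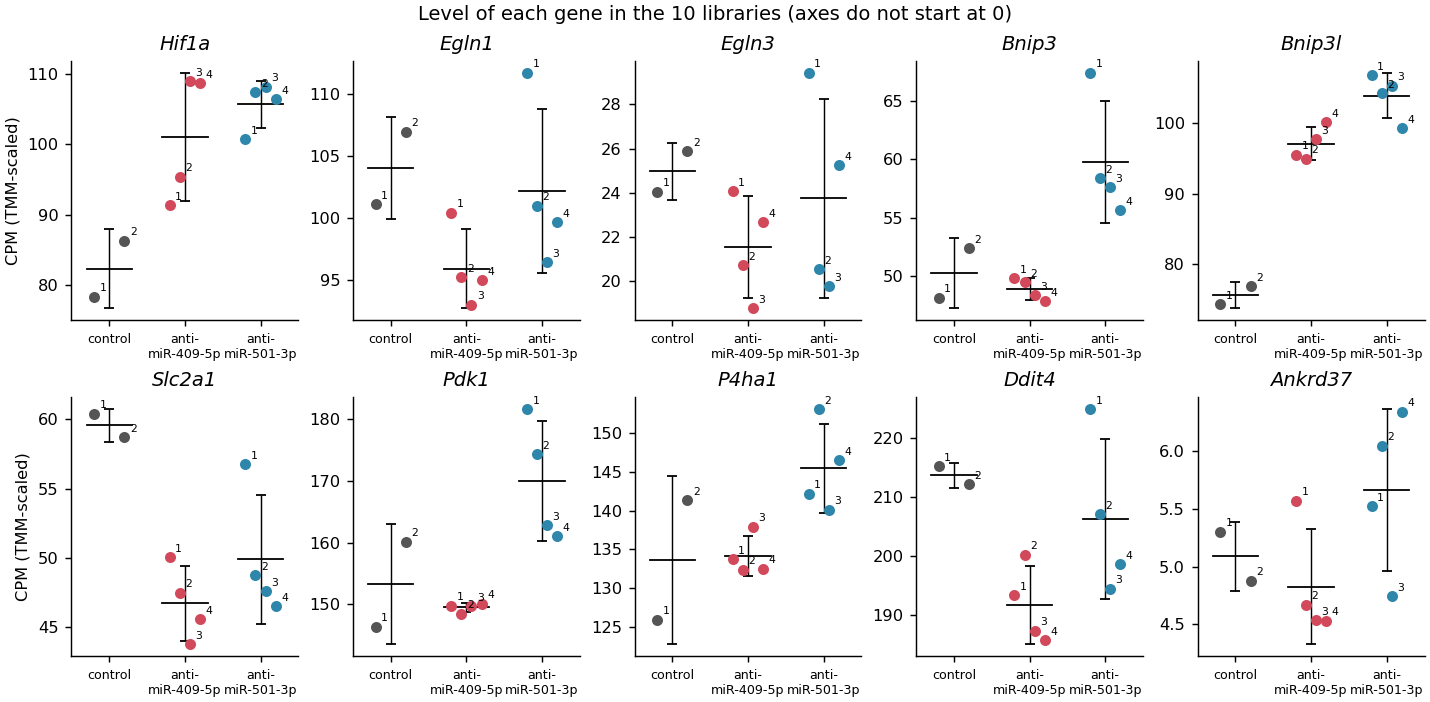
Level of each of the 10 genes in every library, in TMM-scaled CPM (axes do not start at 0), for control (grey, n = 2), anti-miR-409-5p (red, n = 4) and anti-miR-501-3p (blue, n = 4). Points are libraries with their replicate number, the bar is the group mean and the whiskers are 1 SD. Bnip3l lies higher in all 8 anti-miR libraries than in both controls, Slc2a1 lower in all 8, and for Bnip3, Pdk1 and P4ha1 the red and blue points do not overlap.

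The factor and its oxygen sensors come first. Hif1a, which encodes HIF-1alpha, stood at 78.4 and 86.3 CPM in control, at 91.3, 95.4, 109 and 109 under anti-miR-409-5p and at 101, 107, 108 and 106 under anti-miR-501-3p, in order of replicate number. Both control libraries lay below every anti-miR library, and the anti-miR groups overlapped. Hif1a rose by 0.29 on the log2 scale under anti-miR-409-5p (SE 0.068, edgeR adjusted p = 0.0055) and by 0.36 under anti-miR-501-3p (SE 0.068, adjusted p = 0.0011), which is 1.23 and 1.28 times control, and the former missed the threshold without control replicate 1 (adjusted p = 0.099). With a GC content of 41.34% its transcript belongs to a class that moved as a whole: the median of the 788 genes within 1 point of it was 0.28 and 0.31. After GC and length correction the log2 fold change of Hif1a was -0.0016 (adjusted p = 0.991) and 0.030 (adjusted p = 0.733).

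Egln1 (PHD2), the main prolyl hydroxylase that marks HIF-1alpha in normal oxygen, read 101 and 107 CPM in control, 100.5, 95.2, 93.0 and 94.99 under anti-miR-409-5p and 112, 101, 96.5 and 99.7 under anti-miR-501-3p. All 4 anti-miR-409-5p libraries lay below both controls by a small margin, while the anti-miR-501-3p libraries spanned the controls. Neither difference passed, at log2 fold changes of -0.12 (SE 0.053, adjusted p = 0.107) and -0.025 (SE 0.053, adjusted p = 0.756), although the former passed with upper-quartile scaling (-0.16, adjusted p = 0.0379). After GC and length correction Egln1 was at 0.0090 (adjusted p = 0.952) and 0.11 (adjusted p = 0.107), and with the replicate number as a block beside that correction it passed as higher under anti-miR-501-3p (0.13, adjusted p = 0.0405). Egln3 (PHD3), a hydroxylase that is itself a target of the factor, read 24.05 and 25.9 CPM in control, 24.1, 20.7, 18.8 and 22.7 under anti-miR-409-5p and 29.4, 20.5, 19.8 and 25.3 under anti-miR-501-3p. Its groups overlapped throughout, with the widest spread of the 10 genes within a group (18.9% of the mean under anti-miR-501-3p), and neither difference passed (-0.21 with adjusted p = 0.351, and -0.071 with adjusted p = 0.769). Corrected for GC and length, the values of Egln3 were -0.16 (adjusted p = 0.707) and -0.016 (adjusted p = 0.977).

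Bnip3 and Bnip3l (NIX) are the paired mitophagy receptors, outer membrane proteins of mitochondria that bind the autophagosome proteins of the LC3 and GABARAP family. Bnip3l read 74.2 and 76.8 CPM in control, 95.6, 94.96, 97.7 and 100.2 under anti-miR-409-5p and 107, 104, 105 and 99.3 under anti-miR-501-3p. Every anti-miR library lay above both controls, with a gap far wider than the spread within any group. Bnip3l rose by 0.36 (SE 0.044, adjusted p = 3.9e-05) and by 0.46 (SE 0.044, adjusted p = 3.0e-06) on the log2 scale, or 1.29 and 1.38 times control. The median of the 862 genes within 1 point of its GC content of 41.85% was 0.27 and 0.29. With GC and length corrected its log2 fold change was 0.10 under anti-miR-409-5p (adjusted p = 0.208) and 0.17 under anti-miR-501-3p (adjusted p = 0.0156), and the latter alone passed. With the block beside the correction Bnip3l passed in both, at 0.14 (adjusted p = 0.025) and 0.20 (adjusted p = 4.7e-04).

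Bnip3 behaved differently from its paralog. It read 48.1 and 52.4 CPM in control, 49.8, 49.5, 48.3 and 47.8 under anti-miR-409-5p and 67.4, 58.4, 57.6 and 55.6 under anti-miR-501-3p. The anti-miR-409-5p libraries fell within or just under the controls, and all 4 anti-miR-501-3p libraries lay above every other library. Bnip3 rose under anti-miR-501-3p by 0.25 (SE 0.064, adjusted p = 0.0063), 1.19 times control, but not without control replicate 1 (adjusted p = 0.121), and its log2 fold change under anti-miR-409-5p was -0.041 (SE 0.064, adjusted p = 0.682). The 845 genes within 1 point of its GC content of 41.63% had a median of 0.27 under anti-miR-409-5p and 0.30 under anti-miR-501-3p, so that Bnip3 lay well under that median in the former comparison and close to it in the latter. After GC and length correction the log2 fold changes were -0.016 (adjusted p = 0.958) under anti-miR-501-3p and -0.26 (adjusted p = 0.211) under anti-miR-409-5p. Reads of Bnip3 and of Gm45507, an antisense gene that shares 504 of the 2265 exon bases of Bnip3, cannot be told apart without strand. The same limit applies to 330 of the 5896 exon bases of Hif1a (antisense Gm15283) and to 105 of the 3506 of Slc2a1 (antisense Gm12868). Hif1a also shares 148 exon bases with Gm49321 on its own strand.

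Among the metabolic targets, Slc2a1 (GLUT1), the glucose transporter of the blood-brain barrier and of glia, fell. It read 60.4 and 58.7 CPM in control, 50.1, 47.5, 43.8 and 45.6 under anti-miR-409-5p and 56.8, 48.8, 47.6 and 46.5 under anti-miR-501-3p. All 8 anti-miR libraries lay below both controls, with replicate 1 of anti-miR-501-3p closest to them. Slc2a1 fell by 0.35 on the log2 scale (SE 0.069, adjusted p = 0.0018) and by 0.25 (SE 0.069, adjusted p = 0.0096), which is 0.785 and 0.838 times control, and the latter missed the threshold without control replicate 1 (adjusted p = 0.134). It was, after GC and length correction, the 1 gene of the 10 past the threshold under anti-miR-409-5p, at -0.25 (SE 0.053, adjusted p = 0.0046), and it missed it under anti-miR-501-3p at -0.15 (adjusted p = 0.0925). Of the 7 astrocyte markers 4 were higher (Slc1a2, Slc1a3, Aqp4, Gja1) and 1 lower (Aldh1l1) under anti-miR-409-5p, and 3 were higher (Slc1a2, Aqp4, Gja1) and 2 lower (Aldh1l1, S100b) under anti-miR-501-3p, and their part in the level of Slc2a1 was not tested.

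Pdk1, a kinase that switches off pyruvate dehydrogenase and so keeps pyruvate out of the citric acid cycle, read 146 and 160.2 CPM in control, 149.8, 148.5, 149.8 and 150.2 under anti-miR-409-5p and 182, 174, 163 and 161 under anti-miR-501-3p. The 4 anti-miR-409-5p libraries were almost level with each other (SD 0.725 CPM), between the controls, and the 4 anti-miR-501-3p libraries lay above every other library. Pdk1 rose under anti-miR-501-3p by 0.15 (SE 0.049, adjusted p = 0.0261), and the log2 fold change under anti-miR-409-5p was -0.036 (adjusted p = 0.633), or -0.14 with GC and length corrected (adjusted p = 0.102). The rise was 0.041 after GC and length correction (adjusted p = 0.703), with upper-quartile scaling in place of TMM it was 0.11 (adjusted p = 0.100), and without anti-miR-501-3p replicate 2 it was 0.14 (adjusted p = 0.0542). Without control replicate 1 its adjusted p was 0.318. P4ha1, the catalytic subunit of the prolyl 4-hydroxylase that matures collagen, read 126 and 141 CPM in control, 134, 132, 138 and 133 under anti-miR-409-5p and 142, 153, 140.2 and 146 under anti-miR-501-3p. Its controls spanned the anti-miR-409-5p libraries and overlapped with the anti-miR-501-3p libraries. The difference under anti-miR-501-3p was 0.12 (SE 0.048, adjusted p = 0.058), and it passed with the replicate number as a block, at 0.13 (adjusted p = 0.0095), and without control replicate 2, at 0.21 (adjusted p = 0.0098). It also passed without replicate 1 of either anti-miR (adjusted p = 0.0359 and 0.0471), with DESeq2 (0.0488) and without the filter on low counts (0.041). With GC and length corrected P4ha1 was at -0.11 (adjusted p = 0.108) under anti-miR-409-5p and at -0.00061 (adjusted p = 0.996) under anti-miR-501-3p.

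Ddit4 (REDD1), a stress-induced inhibitor of the growth kinase complex mTORC1, read 215 and 212 CPM in control, 193, 200.2, 187 and 186 under anti-miR-409-5p and 225, 207, 194 and 199 under anti-miR-501-3p. All 4 anti-miR-409-5p libraries lay below the controls, and the anti-miR-501-3p libraries lay on both sides. Ddit4 fell under anti-miR-409-5p by 0.16 (SE 0.050, adjusted p = 0.0265), and the log2 fold change under anti-miR-501-3p was -0.051 (adjusted p = 0.475). Its transcript is the richest in GC of the 10 (57.89%), and after GC and length correction the values were 0.046 (adjusted p = 0.585) under anti-miR-409-5p and 0.16, now higher, under anti-miR-501-3p (adjusted p = 0.0063). The fold change was of similar size without any 1 of control replicate 1, control replicate 2 or anti-miR-409-5p replicate 3 or 4 (-0.16 to -0.13), but the adjusted p was then between 0.065 and 0.237. Ankrd37, an ankyrin repeat gene known as a target of HIF-1, read 5.30 and 4.88 CPM in control, 5.57, 4.67, 4.54 and 4.53 under anti-miR-409-5p and 5.52, 6.04, 4.74 and 6.34 under anti-miR-501-3p. The groups overlapped, neither difference passed (-0.076 and 0.16, and 0.032 and 0.27 with GC and length corrected), and 349 of its 1539 exon bases lie opposite Lrp2bp, whose reads cannot be told apart without strand.

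In counts, 4 of the 10 genes passed against control under anti-miR-409-5p (Hif1a and Bnip3l higher, Slc2a1 and Ddit4 lower), where 27.8% of all genes tested did (15.6% higher and 12.2% lower). In the anti-miR-501-3p comparison 5 passed (Hif1a, Bnip3, Bnip3l and Pdk1 higher, Slc2a1 lower), where 33.0% of all genes did (17.6% higher and 15.4% lower). The libraries of the groups did not overlap for 5 of the 10 genes in each comparison, where 48.0% and 49.9% of all genes had no overlap. The median log2 fold change of the 10 was -0.058 and 0.14, against -0.012 for all genes in both. Both comparisons use the same 2 control libraries, so their values are not independent of each other. The balance of directions over all genes depended on the scaling: with TMM, anti-miR-409-5p gave 2634 higher genes and 2062 lower, against 2233 and 3074 with upper-quartile scaling, and 2193 and 3209 with total counts. Under anti-miR-501-3p the same splits were 2974 and 2605, 2540 and 3607, and 2452 and 3779. Both other scalings called Egln1 in addition under anti-miR-409-5p (lower) and no longer called Pdk1 under anti-miR-501-3p. In the authors' deposited tables the genes with an adjusted p of at most 0.05 were the same 4 and the same 5.

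After GC and length correction 1 gene (Slc2a1, lower) passed under anti-miR-409-5p and 2 (Bnip3l and Ddit4, higher) under anti-miR-501-3p, where 5.38% and 8.02% of all genes did. Without control replicate 1 the genes that passed were Bnip3l and Slc2a1 under anti-miR-409-5p and Hif1a and Bnip3l under anti-miR-501-3p, 2 of 10 each, where 7.48% and 10.3% of all genes passed.

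**Figure D2:**
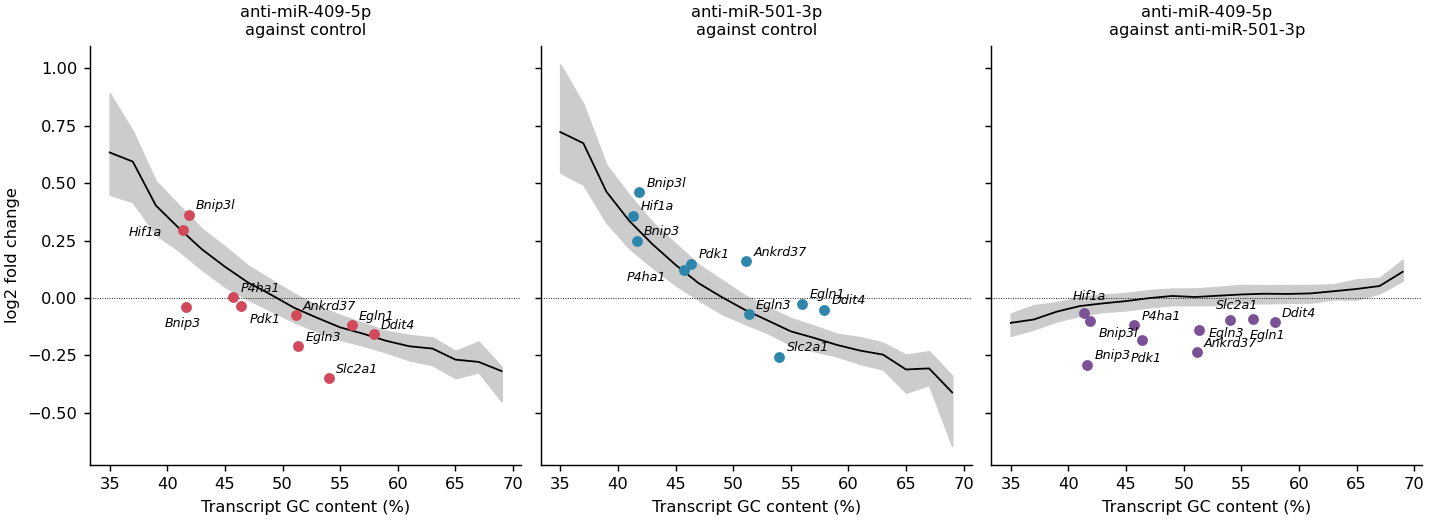
Log2 fold change (vertical) against transcript GC content in percent (horizontal) for the 10 genes (points) in the 3 comparisons, with the median (line) and the middle 50% (grey band) of all genes with a mean log2 CPM above 1. Against control the band falls from left to right, Hif1a follows it in both panels, Bnip3 lies under it with anti-miR-409-5p, and Slc2a1 lies under it in both, and between the anti-miRs the band is nearly flat while all 10 genes lie below 0.

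The direct comparison of the anti-miRs does not use the control libraries as a reference. All 10 genes had a lower fitted level under anti-miR-409-5p than under anti-miR-501-3p, with log2 fold changes from -0.29 (Bnip3) to -0.065 (Hif1a) and a median of -0.11, where the median of all genes was -0.0012. Bnip3 differed by -0.29 (SE 0.052, 95% interval -0.40 to -0.18, 0.818 times), Ankrd37 by -0.24 (SE 0.10), Pdk1 by -0.18 (SE 0.040, -0.27 to -0.10, 0.88 times), Egln3 by -0.14 (SE 0.13) and P4ha1 by -0.12 (SE 0.039). Ddit4 (-0.11), Bnip3l (-0.098), Slc2a1 (-0.094), Egln1 (-0.092) and Hif1a (-0.065) differed by less.

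None of the 10 passed in this fit, which treats the libraries of a group as unrelated, and 0% of the 16884 genes did. At an unadjusted p under 0.05 there were 992 genes, 5.88% of all genes tested and 3.25% in the lower direction, and 7 of the 10 genes, all lower: Bnip3, Bnip3l, Pdk1, P4ha1, Ddit4, Ankrd37 and Egln1. By that p Bnip3 ranked number 3 and Pdk1 number 6 of 16884 genes, with edgeR adjusted p-values of 0.154 and 0.55. The libraries of the anti-miRs did not overlap for Bnip3, Pdk1 and P4ha1, all lower, where 3.47% of all genes had no overlap and 1.81% were lower. DESeq2 called 3 genes (0.0178%), with Bnip3 among them (adjusted p = 0.007). Without the filter on low counts edgeR called 42 of 32177 genes (0.131%), with Bnip3 (adjusted p = 5.1e-07) and Pdk1 (0.0029) among them. The log2 fold changes of both were almost unchanged in that fit (-0.2878 and -0.1824), so its smaller adjusted p-values do not stand for a larger difference.

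**Figure D3:**
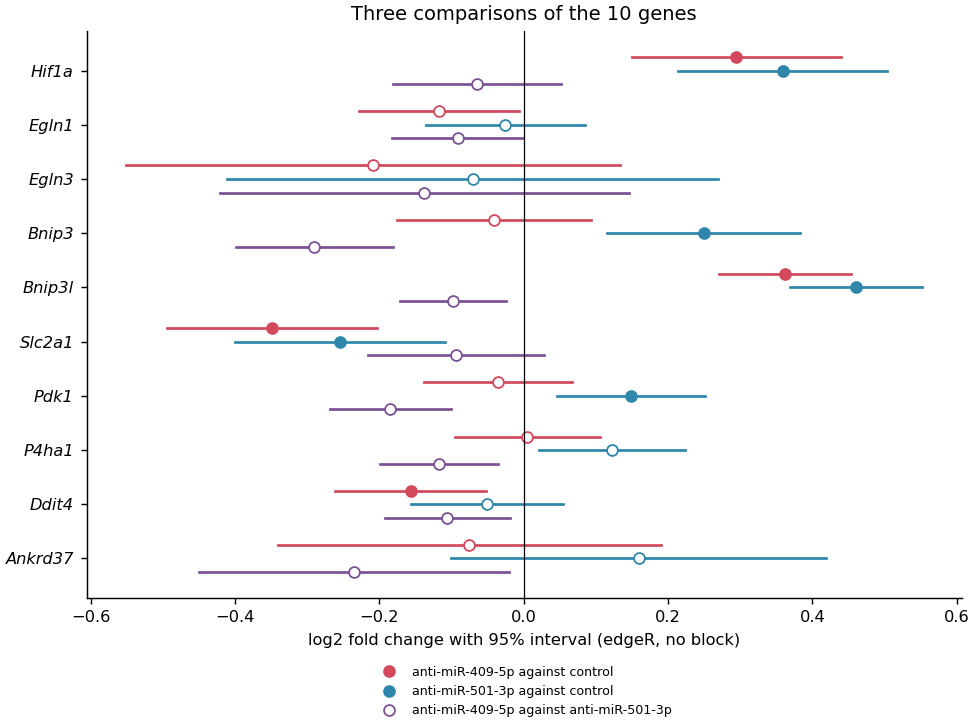
Log2 fold change of each gene with its 95% interval (horizontal bars) in the 3 comparisons, from the edgeR fit without a replicate block. Filled points passed at an adjusted p of at most 0.05 and open points did not, and all 10 points of the direct comparison (purple) lie left of 0, from -0.29 for Bnip3 to -0.065 for Hif1a.

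The anti-miR libraries carry replicate numbers 1 to 4. Deviations from the group means correlated between libraries of the same number at 0.375, 0.164, 0.121 and 0.306 for numbers 1 to 4. For different numbers they correlated at -0.333 to 0.177, so that numbers 2 and 3 do not stand apart from these. Taken by number, Bnip3 under anti-miR-409-5p was 0.739, 0.847, 0.839 and 0.86 times its level under anti-miR-501-3p, so that every ratio was below 1 and replicate 1 the farthest. Pdk1 had ratios of 0.825, 0.852, 0.92 and 0.932, P4ha1 0.94, 0.865, 0.984 and 0.905, and Ddit4 0.86, 0.967, 0.963 and 0.935. Egln1 (0.899 to 0.964) and Slc2a1 (0.882 to 0.98) were also lower in 4 of 4, while Egln3, Bnip3l and Ankrd37 were lower in 3 of 4 and Hif1a in 2 of 4. Over all tested genes, 10.1% were lower in 4 of 4.

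**Figure D4:**
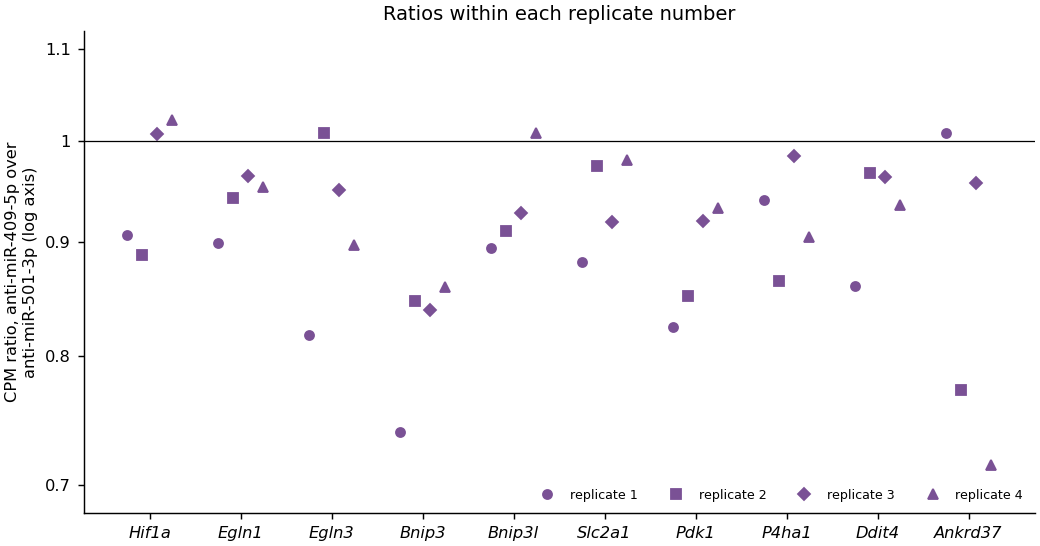
Ratio of the level under anti-miR-409-5p to that under anti-miR-501-3p (log axis) for libraries with the same replicate number, for each of the 10 genes. The line marks a ratio of 1, and for Egln1, Bnip3, Slc2a1, Pdk1, P4ha1 and Ddit4 all 4 ratios lie below it.

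With the replicate number as a block, 252 genes passed in the direct comparison (1.49% of those tested, 0.580% higher and 0.912% lower), and 4 of the 10 genes were among the lower ones. Bnip3 was lower under anti-miR-409-5p by -0.29 (SE 0.042, adjusted p = 0.0012), Pdk1 by -0.18 (SE 0.032, adjusted p = 0.0057), P4ha1 by -0.12 (SE 0.029, adjusted p = 0.0327) and Ddit4 by -0.10 (SE 0.026, adjusted p = 0.0334). The blocked values of Bnip3l (-0.098, adjusted p = 0.0921), Egln1 (-0.091, 0.152), Slc2a1 (-0.092, 0.214), Ankrd37 (-0.24, 0.213), Hif1a (-0.068, 0.355) and Egln3 (-0.14, 0.538) did not pass. With the block and the GC and length correction together, 1.08% of all genes passed (0.604% lower), and Bnip3 (-0.24, adjusted p = 0.0235), Pdk1 (-0.18, 0.0024), P4ha1 (-0.11, 0.0319) and Ddit4 (-0.11, 0.0228) were again the genes of the 10 among them. The correction without the block left 0 of the 10 and 2 genes in all (0.0118%).

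The calls of P4ha1 and Ddit4 were lost when the pair numbered 1, 2 or 4 was left out, and those of Bnip3 and Pdk1 were not. Replicate 1 of anti-miR-501-3p is the highest library of all 10 for Egln1, Egln3, Bnip3, Bnip3l, Pdk1 and Ddit4, and without it the unblocked difference of Bnip3 was -0.23, of Egln3 -0.016 and of Slc2a1 -0.024. When both libraries of a number were left out of the blocked fit, 2, 2, 4 and 3 of the 10 genes passed without number 1, 2, 3 and 4, where 0.362%, 0.239%, 0.987% and 0.975% of all genes were called lower. Bnip3 (-0.31 to -0.23) and Pdk1 (-0.21 to -0.15) passed in all 4 of these fits, P4ha1 and Ddit4 without number 3 alone, and Bnip3l without number 4 alone.

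The promoters of the 4 genes that differed between the anti-miRs in the blocked fit are shown because HIF binds the core motifs ACGTG and GCGTG, here searched on both strands (on the opposite strand CACGT and CACGC) in 250 bases before and 50 bases after the annotated start (RefSeq, GRCm38.p6). Matches are in capitals, on the gene's strand, and a CACGTG counts as a match on each strand. The table of promoters had 10 windows for 9 of the genes and no entry for Bnip3l. Of these windows 9 held at least 1 match, against 60% of 15292 promoters of tested genes. The other windows with a match were those of Hif1a (3 matches), Egln1 (2), Egln3 (1), Slc2a1 (2) and Ankrd37 (4).
Bnip3 promoter, chr7:138909457-138909756, minus strand, 5 matches: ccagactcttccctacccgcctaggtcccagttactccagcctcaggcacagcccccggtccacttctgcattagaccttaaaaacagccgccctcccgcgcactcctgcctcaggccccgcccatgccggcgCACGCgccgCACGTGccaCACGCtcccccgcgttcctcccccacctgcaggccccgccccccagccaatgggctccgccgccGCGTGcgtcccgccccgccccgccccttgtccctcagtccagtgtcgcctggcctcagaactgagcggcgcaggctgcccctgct
Pdk1 promoter, chr2:71872974-71873273, plus strand, 2 matches: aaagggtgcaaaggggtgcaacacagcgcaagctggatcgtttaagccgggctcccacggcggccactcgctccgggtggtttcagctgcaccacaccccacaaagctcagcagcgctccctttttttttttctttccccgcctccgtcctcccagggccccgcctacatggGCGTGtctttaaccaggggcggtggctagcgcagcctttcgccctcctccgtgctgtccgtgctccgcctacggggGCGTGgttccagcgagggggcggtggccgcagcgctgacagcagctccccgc
P4ha1 promoter, chr10:59323046-59323345, plus strand, 3 matches: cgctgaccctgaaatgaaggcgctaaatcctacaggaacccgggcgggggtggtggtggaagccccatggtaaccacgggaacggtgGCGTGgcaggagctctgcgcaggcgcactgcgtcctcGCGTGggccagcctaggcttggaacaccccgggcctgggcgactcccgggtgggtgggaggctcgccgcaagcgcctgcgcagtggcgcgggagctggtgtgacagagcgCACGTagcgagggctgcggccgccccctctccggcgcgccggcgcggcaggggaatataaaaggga
Ddit4 promoter, chr10:59951721-59952020, minus strand, 2 matches: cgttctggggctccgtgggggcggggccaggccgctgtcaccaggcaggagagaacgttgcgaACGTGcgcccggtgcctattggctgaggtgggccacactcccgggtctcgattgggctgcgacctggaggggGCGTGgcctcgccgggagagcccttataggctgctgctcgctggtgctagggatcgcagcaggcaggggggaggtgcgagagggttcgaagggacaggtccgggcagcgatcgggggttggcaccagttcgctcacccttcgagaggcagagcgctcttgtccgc

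The promoter of Bnip3 held the most matches of the 10 windows, 4 of its 5 within a short stretch around a CACGTG, which counts as 2 of them, and a downstream alternative window of Pdk1 held none. No binding of HIF was measured here, and the matches describe letters only.

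Lists of other genes of the pathway were read in the same fits. Among 23 tested metabolic targets of HIF, 8 were lower and 1 was higher under anti-miR-409-5p than under anti-miR-501-3p in the blocked direct comparison, with a median log2 fold change of -0.10, where 0.912% and 0.580% of all genes were called lower and higher. The lower genes were Fam162a, a mitochondrial gene induced by hypoxia (-0.20), Higd1a, a small protein of the inner mitochondrial membrane (-0.16), Ldha, the lactate dehydrogenase subunit that turns pyruvate into lactate (-0.16, adjusted p = 2.5e-04), Pfkfb3, which makes the activator of phosphofructokinase (-0.15), and the glycolytic enzyme genes Gpi1 (-0.13), Pfkl (-0.11), Tpi1 (-0.10) and Hk1 (-0.081). Aldoc, the aldolase of brain and a gene of astrocytes, was higher (0.13). Without both libraries of number 1, 2, 3 or 4 the same list had 5, 8, 7 and 3 lower genes, and Fam162a, Higd1a and Ldha were among them each time.

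Among 27 targets in signalling and matrix, 3 were lower and none was higher: Vegfa, the vascular growth factor (-0.15), Plod2, a collagen lysyl hydroxylase (-0.15), and Wsb1, a subunit of a ubiquitin ligase (-0.14). With the block and the GC and length correction together Wsb1 alone remained, and Vegfa and Plod2 were called without number 3 but not without number 1, 2 or 4. Of 17 regulators of HIF 1 was higher, Epas1, which encodes HIF-2alpha (0.16). Of 37 other mitophagy genes 0 passed, with a median of 0.00067, while Txnip, an arrestin-like gene that responds to glucose, was the 1 lower gene (-0.17) of 20 partners of pyruvate dehydrogenase and mTORC1. Epas1 and Txnip also passed with the block and the GC and length correction together. The call of Txnip was lost without number 1, 2 or 3, and that of Epas1 without number 1 or 2. No gene of these lists passed in the fit without the block, none of the 124 tested differed there by 1.5 times, and the lists were chosen with results of these libraries known.

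**Figure D5:**
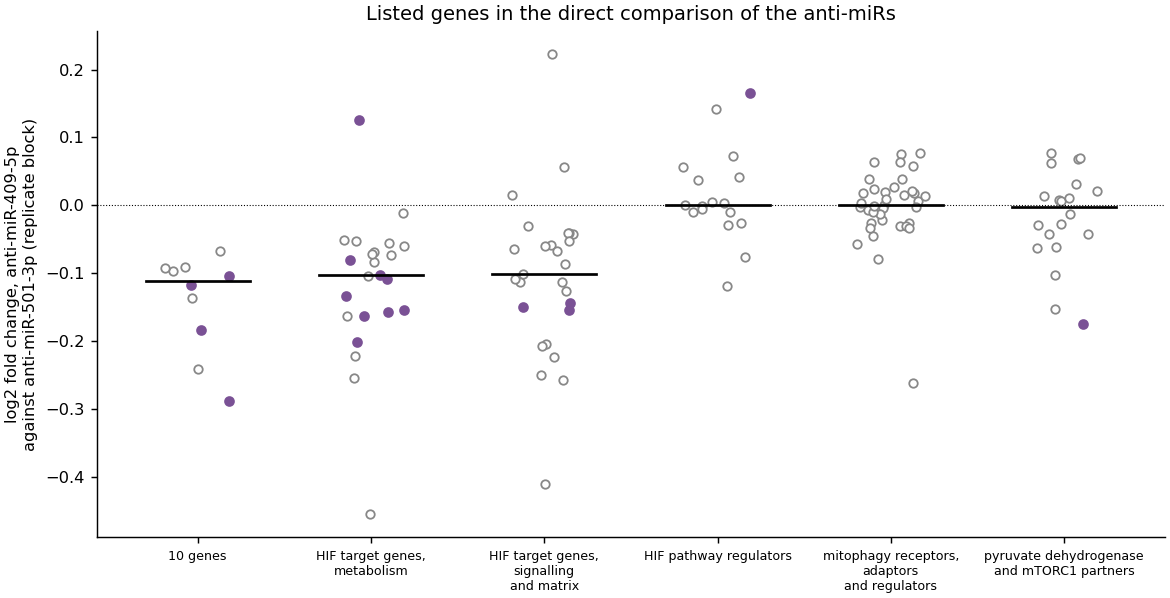
Log2 fold change of anti-miR-409-5p against anti-miR-501-3p (edgeR with replicate block) for the 10 genes and for 5 lists of related genes. Filled points passed at an adjusted p of at most 0.05, open points did not, and bars are medians, which lie near -0.1 for the 10 genes and both lists of HIF targets and near 0 for the other 3 lists.

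Against control, the counts of the same lists stand beside 27.8% of all genes called under anti-miR-409-5p and 33.0% under anti-miR-501-3p. Under anti-miR-409-5p 10 of 23 metabolic targets were lower and 0 higher (median -0.22), among them Mif, a cytokine gene (-0.29), Pfkl, a phosphofructokinase (-0.28), and the enolase Eno1 (-0.28, and -0.21 with adjusted p = 0.0503 under anti-miR-501-3p). Under anti-miR-501-3p 7 were lower, among them Mif (-0.24), Aldoc (-0.22) and the pyruvate kinase Pkm (-0.18), and 1 was higher, Higd1a (0.17), with a median of -0.10. After GC and length correction Fam162a and Ldha remained lower under anti-miR-409-5p, and under anti-miR-501-3p Gpi1 and Higd1a were higher and 0 lower. Without control replicate 1 the list had 8 lower genes under anti-miR-409-5p and 0 called genes under anti-miR-501-3p.

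Of the 27 targets in signalling and matrix 5 rose and 5 fell under anti-miR-409-5p, and 7 rose and 3 fell under anti-miR-501-3p. Tfrc, the transferrin receptor (0.39 and 0.50), Rora, a nuclear receptor (0.40 and 0.48), and Wsb1 (0.20 and 0.35) were higher in each, and Hmox1, the heme oxygenase (-0.28 and -0.24), and Kdm4b, a histone demethylase (-0.25 and -0.19), were lower in each. Jmjd6, a further oxygenase, fell under anti-miR-409-5p (-0.16) and missed the threshold under anti-miR-501-3p (-0.13, adjusted p = 0.0952), and Plod1 did the reverse (-0.14 with adjusted p = 0.0988, and -0.20). With GC and length corrected 0 of the 27 passed under anti-miR-409-5p and 2, Ccng2 and Wsb1, both higher, under anti-miR-501-3p. Without control replicate 1 the counts were 3 and 6.

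Among the 17 regulators 2 rose and 3 fell under anti-miR-409-5p, and 3 rose and 5 fell under anti-miR-501-3p. Eloc (0.47 and 0.58) and Cul2 (0.24 and 0.27) rose and Elob (-0.30 and -0.34) fell, although all 3 encode parts of the same VHL ubiquitin ligase that takes up hydroxylated HIF-1alpha, and their GC contents were 38.23%, 40.6% and 57.36%. The prolyl hydroxylase gene Egln2 (-0.23 and -0.23) fell with each. The chaperone gene Hsp90ab1 fell with each (-0.097 and -0.10), while Hsp90aa1 rose (0.14) and Epas1 fell (-0.17) under anti-miR-501-3p, with 0.061 and -0.0050 under anti-miR-409-5p, neither past the threshold. Of the 17 genes 2 and 1 passed after GC and length correction, and none of the calls just named was among them. These were Cited2 (higher) and Hsp90aa1 (lower) under anti-miR-409-5p, and Cited2 (higher) under anti-miR-501-3p. Without control replicate 1 it was 0 and 2, the latter Elob (lower) and Cul2 (higher).

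Of 37 other mitophagy genes 5 rose and 10 fell under anti-miR-409-5p, and 7 rose and 11 fell under anti-miR-501-3p. With GC and length corrected 8 and 10 passed, and without control replicate 1 it was 3 and 4. The genes named next are given with their values without that correction. Of them Bcl2 and March5 (higher) and Pgam5 (lower) also passed with it in each comparison. Fundc1, Fkbp8, Dnm1l and Fis1 passed with it in neither. The receptor gene Fundc1 rose under anti-miR-501-3p (0.57) and was at 0.32 under anti-miR-409-5p (adjusted p = 0.128), the receptor gene Fkbp8 fell with each (-0.26 and -0.25), and the fission genes Dnm1l (0.33 and 0.36) and Fis1 (-0.28 and -0.30) moved in opposite directions. Bcl2, which holds down autophagy (0.43 and 0.38), and the mitochondrial ubiquitin ligase March5 (0.25 and 0.24) were higher, and the phosphatase Pgam5 was lower (-0.24 and -0.31). Among 20 partners of pyruvate dehydrogenase and mTORC1, 3 rose and 6 fell, and 4 rose and 6 fell. The mTOR inhibitor gene Deptor (0.31 and 0.34) and the pyruvate dehydrogenase phosphatase Pdp1 (0.19 and 0.29) rose and Akt1s1 (-0.21 and -0.28), Rptor (-0.20 and -0.21) and Pdk2 (-0.18 and -0.25) fell, while Sesn3 rose with each (0.17 and 0.11) and Dlat under anti-miR-501-3p (0.16, and 0.095 with adjusted p = 0.108 under anti-miR-409-5p). Of these 20 genes 1 passed in each comparison after GC and length correction. It was Pdp1 each time, then called lower, the opposite of its rise without the correction. Without control replicate 1 the counts were 0 and 1, the latter Pdp1 (higher). Over all 5 lists 49 and 54 of 124 genes passed, beside 27.8% and 33.0% of all genes. With GC and length corrected it was 13 and 16, beside 5.38% and 8.02%, and the correction reversed the sign of Cul2, Egln2, Fkbp8 and Pdp1 in both comparisons. Without control replicate 1 it was 14 and 13, beside 7.48% and 10.3%.

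The genes whose profile over the 10 libraries came closest to that of Bnip3l, among 12810 genes, were Arf4 (root mean square difference of 0.034 on the log2 scale), Lamp2 (0.039), Mindy2 (0.041), Eif4e (0.044) and Lgalsl (0.047), where the median gene differed by 0.20. These 5 transcripts have GC contents of 38.65% to 43.65%, like that of Bnip3l. Their log2 fold changes against control were 0.33 to 0.39 under anti-miR-409-5p and 0.39 to 0.47 under anti-miR-501-3p. Values near those of Bnip3l follow from the choice by profile over these same libraries. Of the other 9 genes Hif1a came closest (0.082, with 3.04% of genes closer still), and Bnip3, the paralog, differed by 0.16, with 30% of genes closer.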

How the data were processed

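The 10 count files, 1 for each library, hold whole-number counts per Ensembl gene, deposited by the authors without normalization. Per the submitters' processing notes, the genome build was mm10 and the tools included STAR 2.5.2b and, of the Subread package (1.5.1), featureCounts, with FastQC 0.11.5; per the labels, reads were 50 bp, single end, from a kit that does not mark strand. The annotation release and the strand setting of the counting are not given in the sources used here. Both tables deposited by the authors compare each anti-miR with control and hold a log2 fold change, a p-value and an adjusted p-value for 17645 and 17722 genes, of which 5137 and 4123 have no adjusted p. Per the file headers they also hold normalised values per library, a signal that was not used for any result, and a test statistic, a score that was not used either. Every column was mapped to a sample, group or comparison.

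The 10 genes and all lists of related genes were chosen with earlier results of these data known. Counts were tested with edgeR 4.0.16 (R 4.3.3) by the quasi-likelihood test with robust dispersion, all 10 libraries in 3 groups, TMM scaling and the default filter on low counts, which kept 16884 of 48709 genes. P-values were adjusted over all tested genes by the Benjamini-Hochberg method at a threshold of 0.05, "passed", "rose" and "fell" refer to that threshold, and CPM values are TMM-scaled. Log2 CPM values use a prior count of 2, and fold changes use the edgeR default. A standard error is the absolute log2 fold change divided by the square root of F. The procedure was first tested on simulated data.

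The GC and length correction fitted, for each library, splines with 5 degrees of freedom on transcript GC content and length (GENCODE M21, 99.7% of tested genes had values) and entered the trend as an offset. Other settings were DESeq2 1.42.0, upper-quartile scaling, total counts, no filter on low counts, the 2 groups of a comparison alone, each library left out, and the replicate number of the titles as a block. Leaving out both anti-miR libraries of 1 number within the blocked fit was added after seeing the data.

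Replicate numbers come from the sample titles, and the labels do not say what they stand for. The deviations of same-numbered libraries of the anti-miR groups from their group means correlated across genes at 0.375, 0.164, 0.121 and 0.306 for numbers 1 to 4, and those of different numbers at -0.333 to 0.177. Numbers 1 and 4 lie above that range, and numbers 2 and 3 lie within it. All anti-miR numbers were still taken as pairs. That choice came from these same libraries, not from the design, and the blocked results rest on it. For the 2 control libraries the data gave less ground for pairing. Control 2 correlated at 0.0425 with anti-miR-409-5p 2, and at 0.299 with a library of another number, anti-miR-501-3p 3. The other same-numbered pairs with a control correlated at 0.211 to 0.359. Every blocked fit, that of the direct comparison included, still placed each control library in the block of its own number. The blocked values against control rest on that pairing. The spread estimated for the direct comparison draws on it in part. Libraries of a group differed by a chi-square of 1.63 to 11.6 per gene, more than sampling noise.

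From the lists of related genes, the text names, in each comparison, up to 3 called genes in each direction with the largest fold changes and a mean log2 CPM of at least 1, all list genes called between the anti-miRs, and any list gene past 1.5 times there. The 5 genes closest in profile to Bnip3l are named as well. Promoters and mature microRNAs are from RefSeq (GRCm38.p6), seed matches from the annotated 3′ UTRs of GENCODE M21.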

Additional observations from a re-analysis of the deposited data

Results flagged for a closer look

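Ankrd37 stood at 5.568 CPM in replicate 1 of anti-miR-409-5p, while the other 3 libraries of that group held 4.533 to 4.67 CPM. The gap was 0.867 of the range of the group, above Dixon's critical value for 4 samples. This was the 1 such value among 20 groups of 4 libraries examined, and chance gives about 1 in 20.

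Bnip3 and Pdk1 lay on opposite sides of the control mean: all 4 anti-miR-409-5p libraries were below it and all 4 anti-miR-501-3p libraries above it. Their log2 fold changes between the anti-miRs were -0.29032 and -0.18477, and neither passed in edgeR without the block (adjusted p = 0.154 and 0.55). With the replicate number as a block, the edgeR test of the difference between the anti-miRs passed for Bnip3 at -0.2888 (adjusted p = 0.0012), Pdk1 at -0.1839 (0.0057), P4ha1 at -0.1178 (0.0327) and Ddit4 at -0.1048 (0.0334). The control mean rests on 2 libraries.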

How the results depend on the processing

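The replicate block changed the calls of Bnip3, Pdk1, P4ha1 and Ddit4 between the anti-miRs and of P4ha1 under anti-miR-501-3p, and no other call of the 10 genes without the GC and length correction. Beside that correction it also added the calls of Bnip3l under anti-miR-409-5p (0.14, adjusted p = 0.025) and Egln1 under anti-miR-501-3p (0.13, adjusted p = 0.0405), both higher. It gave 252 calls in the direct comparison, 4 of them among the 10 genes, and turned the sign of Bnip3 under anti-miR-409-5p (0.0079) and of Egln1 (0.016) and Ddit4 (0.0010) under anti-miR-501-3p, none of which passed. Without both anti-miR libraries of a number, the blocked fit called 139, 60, 226 and 216 genes for numbers 1 to 4, with 2, 2, 4 and 3 of the 10. Without the block, the direct comparison had 3 calls with DESeq2 (1 of the 10), 42 without the filter (2 of the 10), 1 with both anti-miR groups alone, 2 with the GC and length correction, and 0 to 1 when a library was left out. The block with that correction gave 183 calls, 4 among the 10. All 10 genes kept a fold change below 0 between the anti-miRs under every setting tried.

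The GC and length correction left 909 calls under anti-miR-409-5p (1 of the 10) and 1354 under anti-miR-501-3p (2 of the 10), and with the block 991 (2) and 1461 (3). Of the calls made without the correction, 556 of 4696 and 848 of 5579 remained in the same direction, and 58 and 110 turned. Under anti-miR-409-5p its log2 fold changes had the opposite sign for Hif1a (-0.0016), Egln1 (0.0090), P4ha1 (-0.11), Ddit4 (0.046), Ankrd37 (0.032), Cul2 (-0.087), Egln2 (0.0067), Jmjd6 (0.026), Fkbp8 (0.0056), Pdp1 (-0.23) and Akt1s1 (0.033). With the block they did so for Hif1a (-0.026), Egln1 (0.028), P4ha1 (-0.087), Ddit4 (0.061), Ankrd37 (0.062), Eloc (-0.0077), Cul2 (-0.071), Jmjd6 (0.027), Pdp1 (-0.19) and Akt1s1 (0.056). Under anti-miR-501-3p the sign turned for Egln1 (0.11), Bnip3 (-0.016), P4ha1 (-0.00061), Ddit4 (0.16), Cul2 (-0.11), Egln2 (0.042), Hsp90aa1 (-0.057), Mif (0.021), Fkbp8 (0.040) and Pdp1 (-0.19), and with the block for Egln1 (0.13), Egln3 (0.029), Ddit4 (0.17), Cul2 (-0.092), Egln2 (0.014), Hsp90aa1 (-0.063), Pkm (0.013), Dnm1l (-0.0020), Fkbp8 (0.033), Pdp1 (-0.15) and Akt1s1 (0.012).

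P4ha1 under anti-miR-409-5p was -0.035 with upper-quartile scaling and -0.040 with total counts. Leaving out 1 library gave 1302 to 5111 calls under anti-miR-409-5p (2 to 4 of the 10) and 1800 to 6075 under anti-miR-501-3p (2 to 6 of the 10), the lowest of both without control replicate 1. The sign was not stable there for P4ha1 (-0.062 to 0.098), Bnip3 (-0.087 to 0.029) and Pdk1 (-0.086 to 0.038) under anti-miR-409-5p and for Egln1 (-0.067 to 0.022) and Egln3 (-0.19 to 0.0050) under anti-miR-501-3p. The cause of these changes was not tested. With 2 control libraries, each comparison with control leans on single libraries, and with 100 to 187 counts a library Ankrd37 is the least precise of the 10.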
